A study of Mus musculus with 4 samples.

Results

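Genes of DNA replication and mitosis were followed in embryonic kidneys of C57BL/6 mice, taken at embryonic day 15, and 38 of 39 listed genes had a probe set that the platform annotation ties to that gene alone. Each gene was followed by its brightest probe set over the 4 pools, which gave 18 replication genes and 20 mitosis genes out of 18193 gene symbols on the array. The listed gene without such a probe set was Ccnb1, whose signal is not analysed here. The iron-deficient group was carried by dams on a diet with 2 to 6 ppm iron, and the control group by dams on 220 ppm iron. Dams were 8 weeks old when assigned to a diet, ate it for 3 weeks before gestation and stayed on it through pregnancy. No genetic change was involved. Each group held 2 pools of 16 kidneys, 1 array per pool, and nothing in the labels ties the pools to different litters. The p-values therefore reflect spread among pools that could be technical.

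A cell copies its genome in S phase and divides it in mitosis, and the transcripts for both tasks come and go with the cell cycle. Before S phase the MCM helicase is loaded on origins, and its firing needs cyclin-dependent kinases. The DNA synthesis that follows needs a supply of deoxynucleotides made by ribonucleotide reductase. That enzyme carries an iron centre in its small subunit, Rrm2, and iron shortage is known to hold back DNA synthesis in cultured cells. In the kidney at this stage, nephron progenitors, ureteric bud tips and stromal cells all divide.

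No gene of the 38 passed the test between diets. Log2 differences, iron-deficient minus control, ran from -0.65 for Mcm2 to 0.57 for Mcm3, and 36 of 38 lay within 0.5 of 0 on the log2 scale, as did 18269 of all 27022 tested probe sets. The test was limma's, adjusted over those probe sets (smallest adjusted p of a member = 0.852), and none of the 38 had an unadjusted p under 0.05. The same adjusted test called 0% of all tested probe sets, and 3.96% had an unadjusted p under 0.05, so the absence of calls is not particular to these genes. The standard error of a difference had a median of 0.33 on the log2 scale. The 95% interval of limma stayed within 1 log2 unit of 0, a doubling or a halving, for 13 of 38 genes, and reached further for the rest. It did so for 4561 of all 27022 tested probe sets. As the spread among pools could be technical, such an interval does not exclude a doubling or a halving between animals. The number of arrays therefore limits what can be said of each gene, and a p that misses the threshold does not show that levels were alike. In whole kidneys, fewer dividing cells and less RNA per cell cannot be told apart.

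**Figure D1:**
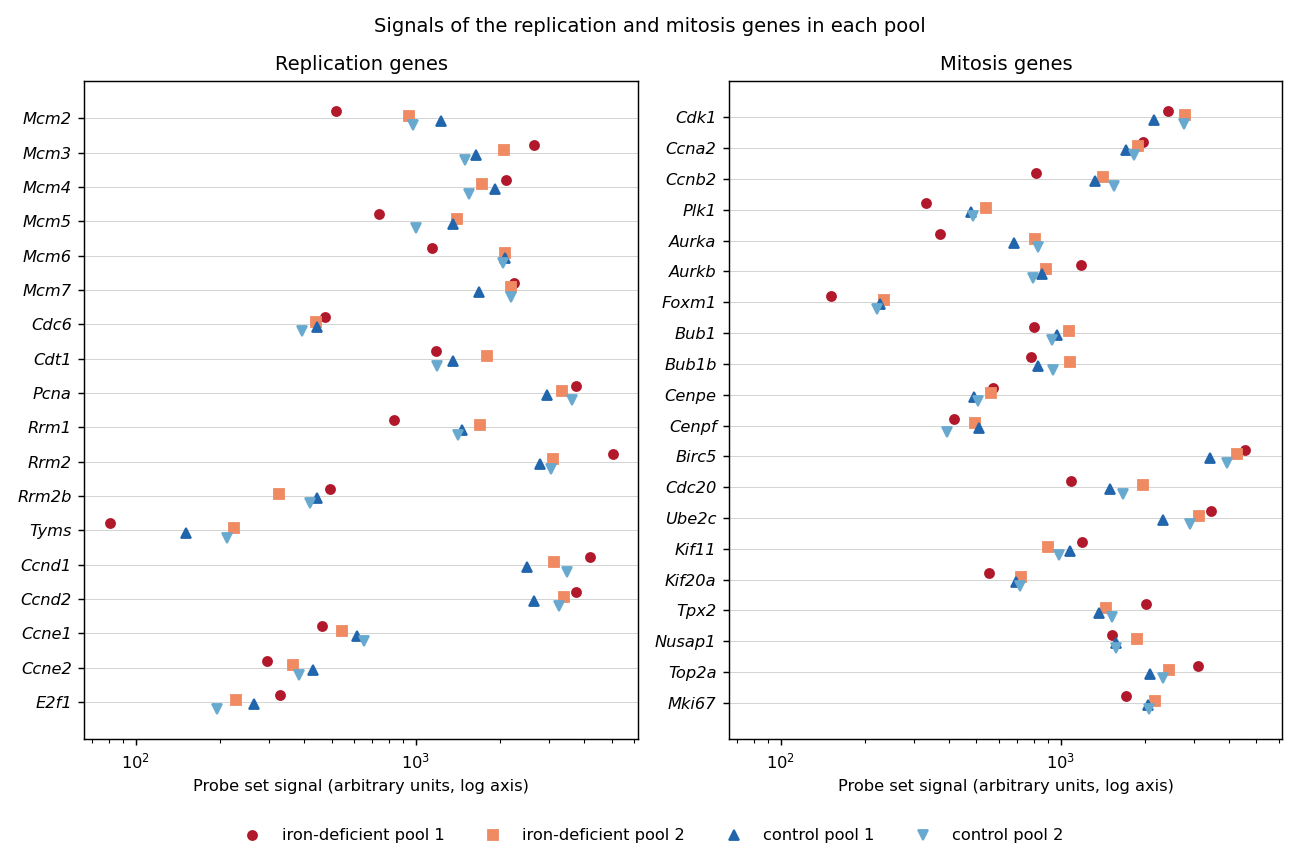
Signal of the brightest probe set of each gene (log axis, arbitrary units) in iron-deficient pools 1 and 2 and control pools 1 and 2, replication genes on the left and mitosis genes on the right. Iron-deficient pool 1 stands to the left for genes such as Tyms (80.6) and Aurka (370.9) and to the right for Rrm2 (5039).

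The arrays and the pools differed in ways that diet does not name. Correlations of log2 signals across tested probe sets, which are not independent replicates, were 0.883 to 0.913 between iron-deficient pool 1 and the other arrays and 0.978 between the control pools. Among the array's controls, 18S ribosomal RNA read at its 5′ end 2144.5 and 243 in iron-deficient pools, against 291.9 and 289.4 in control pools, while the 3′ to 5′ signal ratio of Gapdh was 1.43 and 1.26 against 1.28 and 1.36. The same ratio of Actb was 1.64 and 1.49 in iron-deficient pools, against 1.38 and 1.4 in control pools, and thus higher in both. Markers of kidney were present, with Wt1 at 1649.4 and 1630.7 against 1301.7 and 1324.1, and Pax2 was not analysed here. The labels give every sample as female, yet Eif2s3y, a Y-linked gene, read 253.6 and 20.8 in iron-deficient pools, against 594.5 and 600 in control pools. Blood precursors also divide. The summed signal of 7 tested erythroid markers was 1878 and 1806 in iron-deficient pools, against 924.5 and 990 in control pools. Most of the iron-deficient sum was the embryonic globin Hba-x (1251.2 and 988.1 against 241.5 and 340.4). Alas2, a heme synthesis enzyme, was lower in both iron-deficient pools (135.4 and 305.8 against 520.1 and 479.9), and Klf1 and Epor overlapped. Hemgn (107.1 and 86 against 17.6 and 16.5) and Ermap (58.4 and 74.1 against 20.8 and 13.5) read near or under the filter limit of 17.3 in control pools. No count of higher or lower erythroid markers is therefore drawn. The 7 tested granulocyte markers summed to 2524 and 1781 against 447.2 and 467.3. Of these, Mpo, Ctsg, Camp and Ngp read under the filter limit of 17.3 in both control pools and were tested only through their iron-deficient signals, so no count is drawn from that list. The 7 proximal tubule markers summed to 423.4 and 1019 against 3482 and 3225, all 7 lower in both, although Miox read under that limit in both iron-deficient pools and was tested only through the control signals, and the 4 tested hepatocyte markers to 180.8 and 2465 against 1338 and 1193. The 6 nephron progenitor markers summed to 1920 and 2633 against 2902 and 3038, with 2 lower in both (Cited1 and Meox1), 2 higher (Six2 and Osr1) and 2 overlapping. The 4 stroma markers went the other way, at 8934 and 6168 against 4862 and 4879, with 3 higher in both (Foxd1, Pdgfra and Col1a1) and Tbx18 overlapping. Of 6 tested markers of nephron and collecting system epithelium, 1 was higher (Wt1), 1 lower (Umod) and 4 overlapped, Ret and Wnt11 among them. Beside these marker counts, 25.0% of all tested probe sets were lower and 11.8% higher in both iron-deficient pools. No tested marker of these lists was at 0 in any pool, and the part of these differences in the values below was not tested.

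The promoters of replication and mitosis genes differed in their shares of E2F and cell cycle homology motifs, a property that does not depend on the signals. In RefSeq promoters of GRCm38.p6, which span 250 bases before to 50 bases after a gene's start, 29 of the 39 listed genes matched, Ccnb1 among them. The E2F motif was searched on both strands as TTTGGCGC, TTTCCCGC, TTTGCCGC or TTTCGCGC, the cell cycle homology region (CHR) as TTTGAA or TTCGAA, and the CCAAT box as CCAAT. E2F motifs stood in 6 of 14 promoters of replication genes (42.9%), 1 of 16 of mitosis genes (6.25%) and 2.26% of all 32851 promoters. The CHR, through which late cell cycle genes are held down in resting cells, stood in 12 of 16 mitosis promoters (75.0%), 2 of 14 replication promoters (14.3%) and 19.2% of all. CCAAT boxes stood in 14 of 16 mitosis promoters and 9 of 14 replication promoters, against 37.4% of all. A match is a description of letters and not a bound site. The 250 bases before the start are shown for a helicase gene, the iron-dependent reductase subunit, the mitotic kinase and a mitotic cyclin, with matches to these motifs in capitals. Mcm6 lies at chr1:128359706-128359955 (minus strand), Rrm2 at chr12:24708004-24708253 (plus strand), Cdk1 at chr10:69352913-69353162 (minus strand) and Ccnb2 at chr9:70421555-70421804 (minus strand).
Mcm6: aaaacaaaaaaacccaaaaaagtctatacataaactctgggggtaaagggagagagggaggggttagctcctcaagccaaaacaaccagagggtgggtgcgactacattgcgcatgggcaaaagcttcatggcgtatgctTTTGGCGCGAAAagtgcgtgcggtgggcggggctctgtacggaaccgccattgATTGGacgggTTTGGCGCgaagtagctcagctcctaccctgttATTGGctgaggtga
Rrm2: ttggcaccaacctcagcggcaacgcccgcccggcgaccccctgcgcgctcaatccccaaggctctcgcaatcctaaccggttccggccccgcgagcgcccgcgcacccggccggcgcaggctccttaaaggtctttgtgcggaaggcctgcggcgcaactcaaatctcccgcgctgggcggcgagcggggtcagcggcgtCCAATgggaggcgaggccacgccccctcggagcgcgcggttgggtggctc
Cdk1: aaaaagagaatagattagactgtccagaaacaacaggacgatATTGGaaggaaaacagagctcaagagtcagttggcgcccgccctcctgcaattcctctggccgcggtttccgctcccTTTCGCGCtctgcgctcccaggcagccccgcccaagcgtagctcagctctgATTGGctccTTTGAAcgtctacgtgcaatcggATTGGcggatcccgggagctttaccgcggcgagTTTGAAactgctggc
Ccnb2: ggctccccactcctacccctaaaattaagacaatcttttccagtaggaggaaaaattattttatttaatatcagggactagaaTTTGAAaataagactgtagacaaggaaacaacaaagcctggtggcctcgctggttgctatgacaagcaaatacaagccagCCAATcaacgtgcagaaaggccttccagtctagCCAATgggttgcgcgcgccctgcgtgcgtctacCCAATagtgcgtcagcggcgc
Mcm6 held 3 E2F matches, of which the first overlaps the next by 4 letters, and 2 CCAAT boxes. Cdk1 held 1 E2F match, 2 CHR matches and 3 CCAAT boxes, so that it carried the motifs of both groups. Ccnb2 held 3 CCAAT boxes and 2 CHR matches, of which 1 lies after the start and is not shown, and Rrm2 held 1 CCAAT box alone.

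The replication genes had a median log2 difference of 0.13, beside -0.10 over all tested probe sets. Of 18, 3 had both iron-deficient pools above the control range and 3 had both below it (16.7% each), against 11.8% and 25.0% of all tested probe sets and 36.7% in either direction. With 1 brightest probe set per gene symbol, the same shares were 13.0% above and 25.9% below. The higher ones were Mcm3, Rrm2 and Ccnd2, and the lower ones Mcm2, Ccne1 and Ccne2. None of the 6 passed the test. The median was -0.01 after quantile normalization and -0.14 when all tested probe sets of a gene were averaged, and median centring left 1 gene lower in both.

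The helicase genes Mcm2 to Mcm7 encode 6 subunits of one ring, yet their differences did not share a sign. Mcm2 had signals of 517.6 and 946.7 in iron-deficient pools, against 1234 and 974.7 in control pools (log2 difference -0.65 ± 0.42, SE, limma adjusted p = 0.852). Mcm3 had 2634.5 and 2058.6 in iron-deficient pools, against 1644 and 1494 in control pools (0.57 ± 0.33, adjusted p = 0.852). For both genes the diets did not overlap, with Mcm2 lower and Mcm3 higher, but the Mcm2 signal of iron-deficient pool 2 lay just under that of control pool 2. Without iron-deficient pool 1 the Mcm2 difference was -0.21, and its other probe set differed by -0.17 ± 0.37 with overlapping diets. Mcm6 had 1145.2 and 2085.3 in iron-deficient pools, against 2080.1 and 2041.9 in control pools (-0.42 ± 0.40), so that its difference rested on iron-deficient pool 1, and without that pool it was 0.02. Mcm5 had 739.7 and 1402.8 in iron-deficient pools, against 1352 and 999.1 in control pools (-0.19 ± 0.44), with 1 iron-deficient pool below and the other above both control pools. Mcm4 and Mcm7 differed by 0.14 ± 0.33 and 0.21 ± 0.33, with overlapping diets.

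The helicase loaders gave small differences. Cdc6, which brings the helicase to the origin recognition complex, had 474.2 and 438.3 in iron-deficient pools, against 442 and 393.5 in control pools (0.13 ± 0.31, adjusted p = 0.917). Cdt1, its partner in loading, had 1180.1 and 1794.3 in iron-deficient pools, against 1362.6 and 1189.9 in control pools (0.19 ± 0.36). Pcna, the sliding clamp that holds DNA polymerase on its template, had 3745.8 and 3338.1 against 2931.6 and 3600.6 (0.12 ± 0.32), and both diets spanned a similar range.

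Ribonucleotide reductase was followed through its large subunit Rrm1, its iron-bearing small subunit Rrm2 and the small subunit Rrm2b, which p53 induces and which also carries iron. Rrm2 had signals of 5039 and 3078.8 in iron-deficient pools, against 2769.2 and 3041.2 in control pools (0.44 ± 0.38, 95% interval -0.50 to 1.39, adjusted p = 0.852). The diets did not overlap, yet iron-deficient pool 2 exceeded the controls by little, and without iron-deficient pool 1 the difference was 0.09. The probe set of Rrm2 carries the x suffix that Affymetrix gives where probes can also match other sequences, as do those of Mcm4, Mcm5, Foxm1 and Cdc20. Those of Mcm2, Mcm3, Mcm7, Aurkb and Bub1b carry another suffix, s, and what their probes match was not examined here. The other tested probe sets of Rrm2 differed by 0.39 ± 0.46 and -0.14 ± 0.34, with overlapping diets. Rrm1 had 834.2 and 1698.4 in iron-deficient pools, against 1463.5 and 1412.5 in control pools (-0.27 ± 0.44). In iron-deficient pool 1 the deviation from the control mean was 0.80 for Rrm2 and -0.79 for Rrm1, and in iron-deficient pool 2 it was 0.09 and 0.24, so the subunits deviated in opposite directions in 1 pool alone. A dimmer Rrm1 probe set read 213.7 and 308.9 against 402.9 and 412.3 (-0.67 ± 0.35, adjusted p = 0.852), lower in both iron-deficient pools. Rrm2b had 492.7 and 324.5 in iron-deficient pools, against 443.1 and 417.9 in control pools (-0.11 ± 0.36), and its iron-deficient pools lay on either side of the control pools. Tyms, which makes thymidylate, was the dimmest member, with 80.6 and 224.6 in iron-deficient pools, against 151.4 and 211.3 in control pools (-0.41 ± 0.56).

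D-type and E-type cyclins, which act in turn on the way from G1 into S phase, differed in sign. Ccne1 had 461.5 and 546.5 in iron-deficient pools, against 616.8 and 650.9 in control pools (-0.34 ± 0.32, adjusted p = 0.852). Its other probe set gave 308.1 and 463.8 against 473.5 and 491.4 (-0.35 ± 0.36), so that both of its probe sets were lower in both iron-deficient pools. Ccne2 had 294.7 and 365.4 in iron-deficient pools, against 430.8 and 382.6 in control pools (-0.31 ± 0.33, adjusted p = 0.852). Cyclin E binds Cdk2 to start replication, and its 2 genes were lower by a similar amount, although neither passed the test. The Ccne2 signal of iron-deficient pool 2 lay just under that of control pool 2. After median centring, 1 of 18 replication genes was lower in both iron-deficient pools, so Ccne1 and Ccne2 did not both stay separated by diet. Ccnd2 had 3741.7 and 3385.2 in iron-deficient pools, against 2644 and 3241.5 in control pools (0.28 ± 0.32), while Ccnd1 had 4183.6 and 3107.5 against 2503.1 and 3458.9 (0.29 ± 0.36) with overlapping diets. After quantile normalization both D-type cyclins differed by -0.01, so that their sign depended on the scaling. The 7 tested probe sets of Ccnd2 ran from -0.27 to 0.42. E2f1, a transcription factor that switches on S phase genes, had 328.2 and 228.1 in iron-deficient pools, against 263.7 and 195.7 in control pools (0.27 ± 0.37), and its dimmer probe set, at 18.9 and 37.2 against 42.1 and 40.1, differed by -0.63 ± 0.43.

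**Figure D2:**
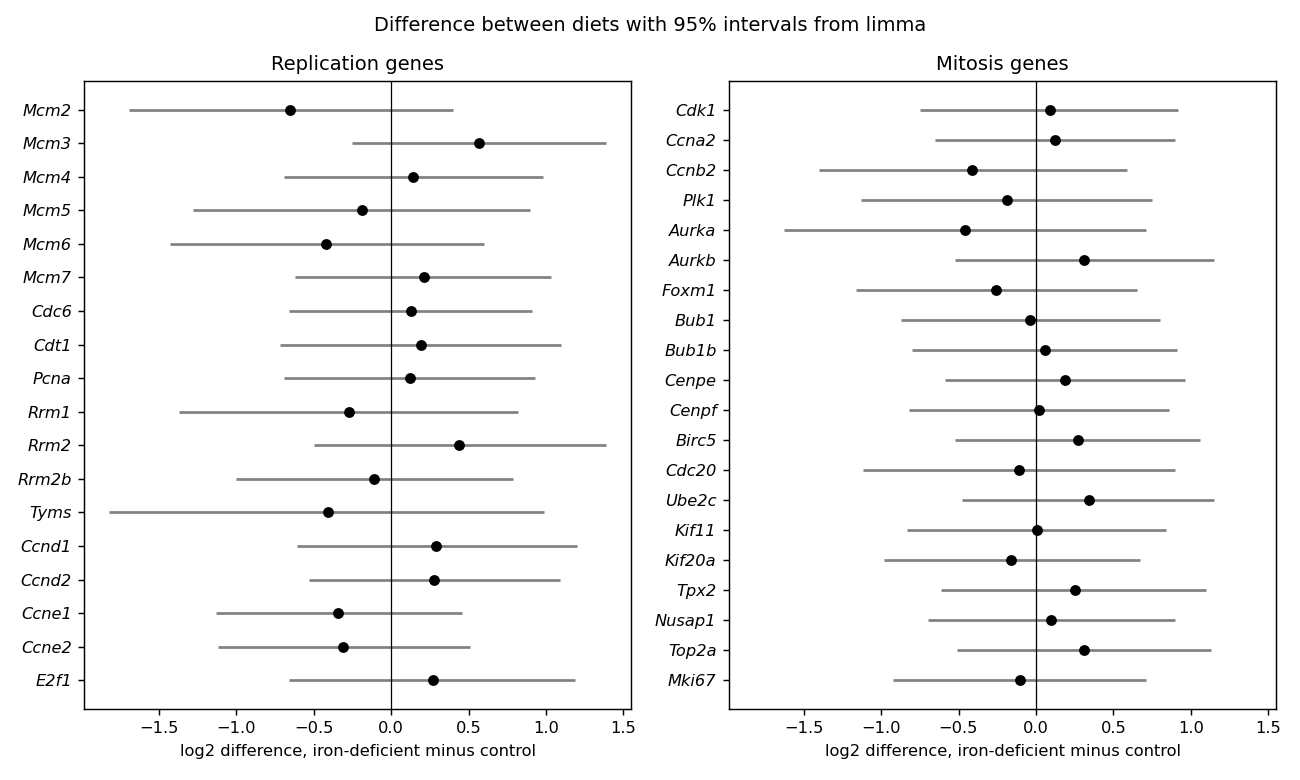
Log2 difference between diets, iron-deficient minus control, of each gene (points) with the 95% interval from limma (lines), replication genes on the left and mitosis genes on the right. Every interval crosses 0, and the intervals reach from -1.82 at the lowest end to 1.39 at the highest.

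The mitosis genes had a median log2 difference of 0.04, beside -0.10 over all tested probe sets, with a range from -0.46 for Aurka to 0.34 for Ube2c. Of 20, 6 had both iron-deficient pools above the control range (30.0%) and 0 had both below it, where these shares were 11.8% and 25.0% over all tested probe sets. The 6 were Ccna2, Aurkb, Cenpe, Birc5, Ube2c and Top2a, and none of them passed limma's adjusted test. With median centring of the arrays, 1 of 20 was higher in both, and 3 of 20 after quantile normalization, so the count followed the scaling of the arrays. Averaging all tested probe sets of a gene gave a median of -0.17 with 3 higher and 1 lower in both.

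Among the cyclins and kinases of mitosis, Cdk1, the kinase that drives entry, had 2413.4 and 2789.5 in iron-deficient pools, against 2154.7 and 2768.8 in control pools (0.09 ± 0.33, adjusted p = 0.947). Its partner Ccna2 had 1962.6 and 1886.1 in iron-deficient pools, against 1718.4 and 1821.4 in control pools (0.12 ± 0.31). A second Ccna2 probe set read 939.3 and 1161.5 against 1218.1 and 1279.4 (-0.26 ± 0.32), so that the gene's probe sets were separated by diet in opposite directions. Ccnb2, a B-type cyclin, had 819.4 and 1422.2 in iron-deficient pools, against 1323 and 1548.5 in control pools (-0.41 ± 0.40). Aurka, which builds the spindle poles, had 370.9 and 808.7 in iron-deficient pools, against 682.7 and 832.4 in control pools (-0.46 ± 0.47), and Plk1, another kinase of entry and spindle assembly, had 329.7 and 541.9 against 477.4 and 487.2 (-0.19 ± 0.38). For these 3 genes iron-deficient pool 1 read below both control pools and iron-deficient pool 2 did not. Without iron-deficient pool 1, Aurka and Plk1 differed by 0.10 and 0.17. Aurkb, the kinase of the chromosomal passenger complex, differed in the other direction, with 1178.1 and 889.3 in iron-deficient pools, against 856.3 and 794.1 in control pools (0.31 ± 0.33), and its other probe set differed by 0.32 ± 0.36. Foxm1, the transcription factor that switches on many of these genes, had 151.2 and 233.3 in iron-deficient pools, against 226.9 and 221.6 in control pools (-0.26 ± 0.36), and its 3 tested probe sets ran from -0.60 to -0.26.

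The brightest probe sets of the kinetochore and checkpoint genes differed by -0.04 to 0.27. Bub1 and Bub1b, kinases of the checkpoint that delays anaphase, differed by -0.04 ± 0.33 and 0.06 ± 0.34, and Cenpf, a kinetochore protein, by 0.02 ± 0.34. Dimmer probe sets gave lower values, at -0.40 ± 0.44 for Bub1, -0.38 ± 0.42 and -0.29 ± 0.32 for Bub1b, -0.33 ± 0.51 for Cenpe, and -0.60 ± 0.33 and -0.09 ± 0.34 for Cenpf. With the mean over probe sets, Bub1b, Cenpf and Cenpe differed by -0.20, -0.23 and -0.07, so that their sign depended on the probe set. Cenpe, a kinetochore motor, had 572.3 and 565 in iron-deficient pools, against 490.8 and 508.3 in control pools (0.19 ± 0.31, adjusted p = 0.884). Birc5, the passenger protein survivin, had 4565.5 and 4261.7 in iron-deficient pools, against 3419.6 and 3938.8 in control pools (0.27 ± 0.32), and after quantile normalization the difference was -0.11. Ube2c, the conjugating enzyme of the anaphase-promoting complex, had 3440.1 and 3124.3 in iron-deficient pools, against 2322.6 and 2893.4 in control pools (0.34 ± 0.33, adjusted p = 0.852). Cdc20, which activates that complex, had 1089 and 1965.2 against 1495.2 and 1674.3 (-0.11 ± 0.40), with the iron-deficient pools on either side of the control pools.

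By their brightest probe sets, spindle genes and the markers of dividing cells gave overlapping diets except for Top2a. Kif11, the motor that pushes spindle poles apart, differed by 0.01 ± 0.33, Kif20a, a motor of cytokinesis, by -0.16 ± 0.33, Nusap1, which bundles microtubules near chromatin, by 0.10 ± 0.32 and Tpx2, which nucleates them there, by 0.25 ± 0.34. The dimmer probe set of Nusap1 read 64.7 and 50.6 in iron-deficient pools, against 115.9 and 81.4 in control pools (-0.76 ± 0.36), lower in both, and dimmer ones of Kif11 differed by -0.74 ± 0.65 and -0.05 ± 0.36. Mki67, the Ki-67 antigen used to mark dividing cells, had 1705 and 2174.6 in iron-deficient pools, against 2055.3 and 2073.8 in control pools (-0.10 ± 0.33, 95% interval -0.92 to 0.71, adjusted p = 0.939). Top2a, the topoisomerase that untangles sister chromatids, had 3082.8 and 2442.6 in iron-deficient pools, against 2091.7 and 2328.6 in control pools (0.31 ± 0.33). Its dimmer probe set differed by 0.83 ± 0.65, at 97.3 and 35 against 49.5 and 21.8.

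The iron-deficient pools differed more from each other than the control pools did. In iron-deficient pool 1, 18 genes read above both control pools, 18 below both and 2 between them (47.4% above and 47.4% below, against 34.9% and 52.6% of all tested probe sets). Deviations from the control mean ran from -1.15 for Tyms to 0.80 for Rrm2. In iron-deficient pool 2, 23 genes read above both control pools, 5 below both and 10 between them (60.5% above and 13.2% below, against 31.3% and 40.5%). Deviations ran from -0.41 for Rrm2b to 0.49 for Cdt1. Of the 38 genes, 15 deviated by more than 0.5 in pool 1, 0 did in pool 2, and the control pools differed by at most 0.48. The deviations had an SD of 0.533 in pool 1 and 0.18 in pool 2, where all tested probe sets, dim ones included, had 0.953 and 0.485. With 1 brightest probe set per gene symbol and mean signals within the range of the members, the SD was 0.788 and 0.364. Both pools deviated upwards for 15 genes, downwards for 4 and in opposite directions for 19. The counts beyond 0.5 and of shared direction were not taken over all tested probe sets, so neither is read as particular to these genes. Above the control mean lay 47.4% of the genes in pool 1 and 81.6% in pool 2, against 41.7% and 46.1% of all tested probe sets. Among mitosis genes in pool 2, 15 of 20 (75.0%) lay above both control pools, against 31.3% of all tested probe sets, at a median deviation of 0.15, and in pool 1 that count was 8 of 20 (against 34.9%). With 1 brightest probe set per gene symbol and mean signals within the range of the members, 37.7% lay above both control pools in pool 2 and 32.6% in pool 1.

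**Figure D3:**
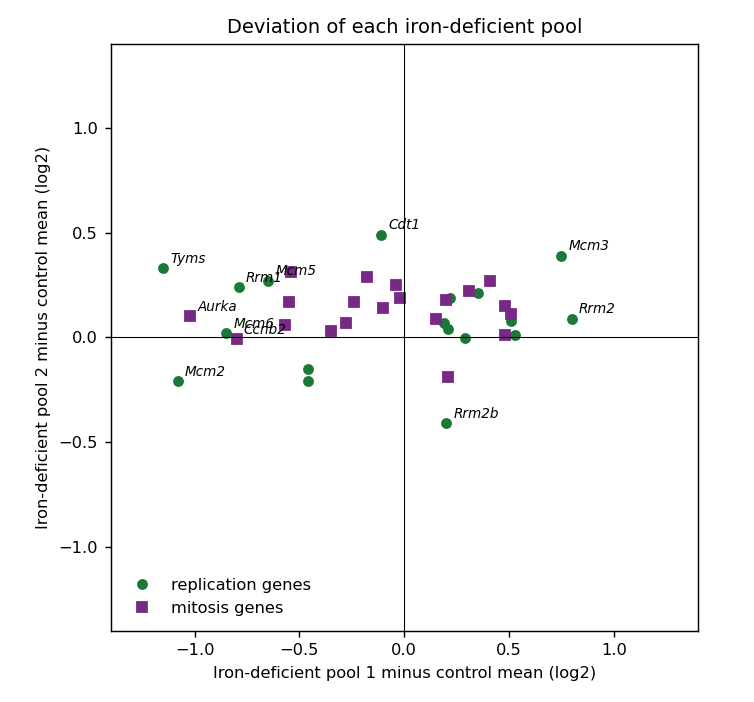
Deviation from the control mean (log2) in iron-deficient pool 1 (horizontal) and iron-deficient pool 2 (vertical), 1 point per gene, with genes that deviate most named. Points spread from -1.15 to 0.80 along pool 1 and from -0.41 to 0.49 along pool 2.

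The deviation differed with signal strength, more widely in iron-deficient pool 1 than in pool 2. Of 10 genes with a mean signal of 2000 or more, 8 lay above the control mean in pool 1, with a median deviation of 0.33, while 7 of 20 genes between 500 and 2000 did (median -0.21) and 3 of 8 below 500 (median -0.28). The medians of all tested probe sets showed a like pattern, at 0.39, -0.19 and -0.24 in these classes, with 75.2% above the control mean in the brightest class. In pool 2 the medians of the members were 0.17, 0.11 and 0.06, and those of all tested probe sets 0.17, -0.02 and -0.08. All 10 of the brightest members lay above the control mean there, as did 84.5% of all tested probe sets of that class. As a description over the 38 genes, which share their arrays, the correlation of deviation with log2 mean signal was 0.438 in pool 1 and 0.257 in pool 2. Over all tested probe sets it was -0.0258 and 0.0965, so no such trend ran over the whole signal range. In pool 1 it was -0.178 for all tested probe sets below 500, 0.166 between 500 and 2000 and 0.376 from 2000. The part of signal strength in single differences was not tested.

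**Figure D4:**
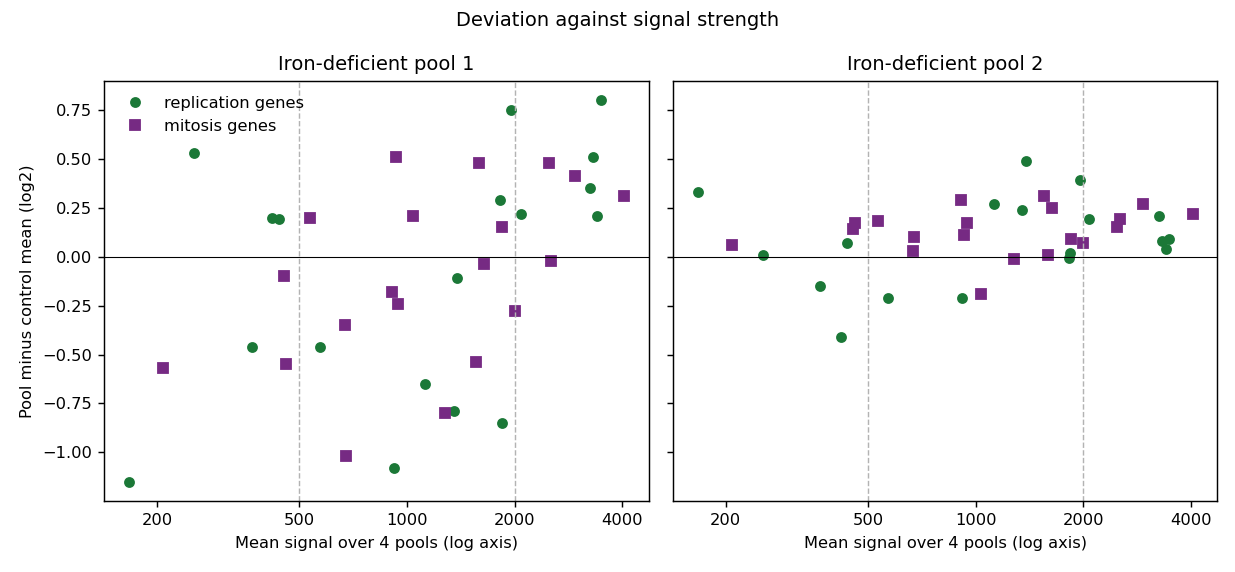
Deviation from the control mean (log2) against mean signal over 4 pools (log axis) in iron-deficient pool 1 (left) and pool 2 (right), with dashed lines at signals of 500 and 2000. In pool 1, 8 of 10 genes right of the second line lie above 0, and in pool 2 all 10 do. The same holds for 75.2% and 84.5% of all tested probe sets with such signals.

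Probe sets of 1 gene often disagreed. The members had 96 probe sets of their own, of which 85 passed the filter on dim signals, and 27 genes had several. For 16 of these 27 the tested probe sets differed in sign, and in 19 the brightest probe set had the highest difference of its gene. The 47 dimmer probe sets had a median log2 difference of -0.25, with 34 negative, and median deviations of -0.41 in pool 1 and 0.02 in pool 2 of the iron-deficient group. Of all 27022 tested probe sets, 15772 were negative. Agreement within genes was not counted over the whole array, so these counts are not read as particular to these genes. Mcm3 shows the range, since its 3 brightest probe sets differed by 0.57, 0.51 and 0.36 and were all higher in both iron-deficient pools, while the others, at -0.23 and -0.34, overlapped. Choosing the brightest probe set therefore placed the members higher than an average over probe sets would, with medians of -0.14 for replication and -0.17 for mitosis genes under the average. The 11 genes whose probe sets shared a sign were Mcm2, Mcm5, Mcm6, Rrm1, Ccne1, Foxm1, Bub1 and Cdc20, all negative, and Cdt1, Aurkb and Top2a, all positive.

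**Figure D5:**
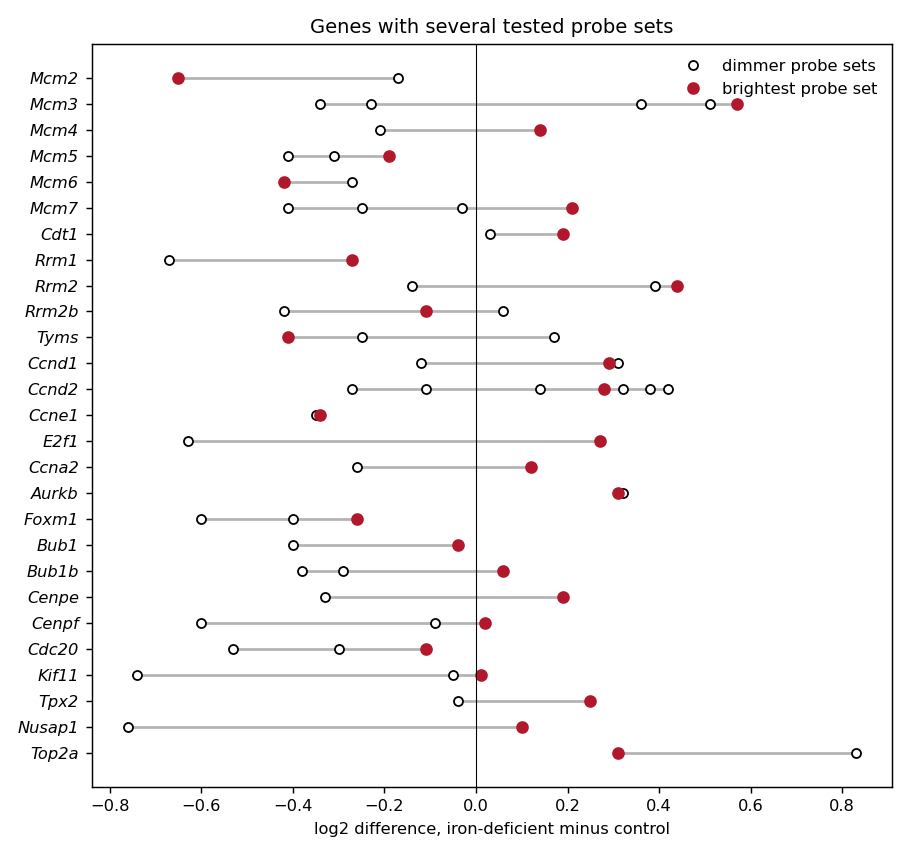
Log2 difference between diets of every tested probe set, for the 27 genes with several, the brightest as a filled point and the dimmer ones as open points. The filled point is the rightmost of its gene in 19 of 27 genes.

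Other genes of replication gave lower shares near those of all tested probe sets, and none passed the test. Of 18 genes of origin recognition and helicase firing, 6 were lower and 0 higher in both iron-deficient pools (33.3%, against 25.0% of all tested probe sets), with a median log2 difference of -0.29. In iron-deficient pool 1, 16 of 18 read below both control pools (88.9%, against 52.6%) with a median deviation of -0.52, while in pool 2 it was 7 of 18 (38.9%, against 40.5%) with a median of 0.00. The smallest p-values belonged to Gins3, Cdc45 and Orc2, parts of the active helicase and of the origin complex, at -0.52 ± 0.32, -0.52 ± 0.39 and -0.54 ± 0.41. Of 27 polymerase and fork genes, 8 were lower and 2 higher in both (29.6% and 7.41%), with a median of -0.19, and their median deviation was -0.40 in pool 1 and 0.11 in pool 2. Pole4, a small subunit of polymerase epsilon, had 279.5 and 405.6 in iron-deficient pools, against 569.1 and 515.1 in control pools (-0.69 ± 0.35, adjusted p = 0.852), and Pole2, of the same enzyme, differed by -0.46 ± 0.32. Fen1, which trims Okazaki fragments, differed in the other direction at 0.52 ± 0.39, and its higher value stood mainly in pool 1 (4146.6 and 2536.2 against 2026.8 and 2515.9). Pold1, Pole, Prim2 and Dna2, named here because their proteins hold iron-sulfur clusters, differed by 0.33 ± 0.37, -0.19 ± 0.50, -0.04 ± 0.32 and -0.27 ± 0.32, and of these only Dna2 had diets that did not overlap. Among 14 matched genes of nucleotide supply the median was 0.08, with 2 lower and 0 higher in both. Thymidine kinase Tk1 differed by -0.41 ± 0.34, the pyrimidine enzyme Umps by -0.54 ± 0.47 and the deoxycytidine kinase Dck by 0.53 ± 0.47.

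Other genes of mitosis gave values in both directions, and their counts stand beside 11.8% of all tested probe sets higher and 25.0% lower in both pools. Of 18 further kinetochore and checkpoint genes, 7 were lower and 0 higher in both iron-deficient pools (38.9%), with a median of -0.28. The median deviation of that list was -0.46 in iron-deficient pool 1 and -0.06 in pool 2. In iron-deficient pool 1, 16 of 18 read below both control pools (88.9%, against 52.6% of all tested probe sets). Cenpn, Ttk and Nuf2 differed by -0.52 ± 0.34, -0.47 ± 0.34 and -0.36 ± 0.33. Of 15 genes of chromosome condensation and segregation, 2 were lower and 1 higher in both (13.3% and 6.67%), with a median of -0.03, and Kif4, Espl1 and Incenp differed by -0.59 ± 0.51, 0.29 ± 0.34 and 0.27 ± 0.34. Of 15 tested genes of spindle motors and cytokinesis, 1 was lower and 3 higher (6.67% and 20.0%), with a median of 0.02. Kif15, a mitotic motor, read 133.5 and 11.4 in iron-deficient pools, against 11.5 and 6.2 in control pools. It passed the filter through iron-deficient pool 1 alone, with the other 3 pools under the limit of 17.3, so no difference is given. Cep55, which acts in the last cut between daughter cells, read 1920 and 792.9 against 752.6 and 737 (0.73 ± 0.49), and Kif18a differed by -0.47 ± 0.36. Of 14 cell cycle kinases and phosphatases, 3 were lower and 1 higher in both (21.4% and 7.14%), and Cdc25a, which activates Cdk2, read 256.6 and 443 in iron-deficient pools, against 562.3 and 518.3 in control pools (-0.68 ± 0.39, adjusted p = 0.852). Mastl differed by -0.57 ± 0.36 and Nek2 by -0.71 ± 0.52.

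Regulators of the cycle gave values in both directions, beside the same shares of 11.8% higher and 25.0% lower over all tested probe sets. E2f2 had 83 and 85.9 in iron-deficient pools, against 158.7 and 151.6 in control pools (-0.88 ± 0.31, unadjusted p = 0.0327, adjusted p = 0.852), and it was the 1 gene with an unadjusted p under 0.05 among 158 tested genes of these lists, where 3.96% of all tested probe sets had one. E2f2 activates S phase genes as E2f1 does, and its pools within a diet lay close together. E2f5 and Rbl2, partners in repression, differed by -0.65 ± 0.49 and -0.49 ± 0.33, and 3 of 15 genes of that list were lower and 1 higher in both (20.0% and 6.67%). Of 7 tested inhibitors of cyclin-dependent kinases, 3 were higher and 1 lower in both (42.9% and 14.3%). Cdkn1b, which encodes p27, had 1583 and 1103.8 in iron-deficient pools, against 860.2 and 813.4 in control pools (0.66 ± 0.35, adjusted p = 0.852), and Cdkn2b had 26.7 and 49.2 against 22.2 and 17.7 (0.87 ± 0.42). Cdkn3, a phosphatase of Cdk2, differed by -0.60 ± 0.42. The p53 target Cdkn1a had 365.2 and 791.9 in iron-deficient pools, against 498.9 and 552.6 in control pools (0.03 ± 0.46), with its iron-deficient pools on either side of the control pools. Mdm2 and Ccng1, other p53 targets, differed by -0.03 ± 0.36 and -0.05 ± 0.31, and over 16 tested p53 targets 3 were lower and 1 higher in both (18.8% and 6.25%), with a median of -0.03. The smallest p-values of that list belonged to Tigar (-0.64 ± 0.31), Aen (-0.59 ± 0.31) and Sesn2 (-0.78 ± 0.51).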

How the data were processed

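Each of the 4 kidney pools gave biotin-labelled RNA for 1 Affymetrix array, per the labels. The authors deposited intensity on a linear scale, scaled so that each array has the same mean after 2% of probe sets are trimmed at each end. The submitters' processing notes name RMA, which does not match linear intensities, so which software made them stays unknown. From the deposited values log2 was taken after setting zeros to 0.1, 64 control probe sets and the lowest 40% of the other 45037 by mean log2 signal (under 17.3) were left out, and 27022 probe sets entered limma (version 3.58.1, R version 4.3.3; lmFit and eBayes, diet as the only term, two-sided, Benjamini-Hochberg over all 27022, prior degrees of freedom 3.49). Values after ± are standard errors. All 38 matched members passed the filter, and 0 sample columns were left unused. The procedure was tested on simulated data. The members, the lists and the tests were chosen with earlier results of these data known. Besides the members, up to 3 genes with the smallest p of each list are named, and Cdkn1a, Mdm2 and Ccng1 whatever their values. Pold1, Pole, Prim2 and Dna2 were added for their cofactor after the files were at hand. Alternatives were other filters, quantile normalization, median centring, an offset of 16, an intensity trend, robust hyperparameters, array weights, a block for replicate number, leaving out single pools, 1 probe set per gene, a mean over probe sets and an adjusted p of 0.10.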

Additional observations from a re-analysis of the deposited data

How the results depend on the processing

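None of the 38 genes passed an adjusted p of 0.05 in any other setting that gave one, which the mean over probe sets did not. Over the 15 settings that recomputed the log2 difference, that mean included, 11 of 38 genes kept its sign. The count of called probe sets over the whole array was 0, against 201 after median centring (82 higher, 119 lower), 479 with the replicate number as a block (261 higher, 218 lower), 8 with 1 probe set per gene (1 higher, 7 lower) and 0 to 75 with a pool left out (75 without control pool 1, 31 without control pool 2). Under median centring, the block and either control pool left out, limma's prior degrees of freedom were infinite, and without an iron-deficient pool the lone pool is assumed to vary like the control pools. The labels do not tie equal replicate numbers to a litter, batch or day, so pools share only a number (correlation of same-numbered deviations 0.357), and the block cannot alter differences in this balanced design, so the medians of 0.13 for replication and 0.04 for mitosis genes under it are fixed by construction. The replication median was -0.01 after quantile normalization, -0.14 with the mean over probe sets and 0.02 to 0.19 with a pool left out, and the mitosis median -0.17 with that mean. Replication genes lower in both iron-deficient pools numbered 1 after median centring and 3 to 8 with a pool left out, and those higher numbered 6 to 10. Mitosis genes lower in both numbered 1 with the mean over probe sets and 1 to 10 with a pool left out, and those higher numbered 3 after quantile normalization, 1 after median centring, 3 with that mean and 7 to 15 with a pool left out, where the smaller diet has fewer values to overlap. Signs turned after quantile normalization for Mcm4 (-0.01), Pcna (-0.20), Rrm2b (0.04), Ccnd1 (-0.01), Ccnd2 (-0.01), Cdk1 (-0.11), Ccna2 (-0.02), Bub1 (0.02) and Birc5 (-0.11), and after median centring for Kif11 (-0.0022). They turned with the mean over probe sets for Mcm4 (-0.03), Mcm7 (-0.12), E2f1 (-0.18), Ccna2 (-0.07), Bub1b (-0.20), Cenpe (-0.07), Cenpf (-0.23), Kif11 (-0.26) and Nusap1 (-0.33). With each pool left out in turn, signs turned for these genes, whose differences ran over these ranges: Mcm4 -0.01 to 0.29, Mcm5 -0.65 to 0.27, Mcm6 -0.85 to 0.02, Cdt1 -0.11 to 0.49, Pcna -0.03 to 0.27, Rrm1 -0.79 to 0.24, Rrm2b -0.41 to 0.20, Tyms -1.15 to 0.33, Cdk1 -0.09 to 0.27, Plk1 -0.55 to 0.17, Aurka -1.02 to 0.10, Foxm1 -0.57 to 0.06, Bub1 -0.24 to 0.17, Bub1b -0.18 to 0.29, Cenpf -0.16 to 0.21, Cdc20 -0.54 to 0.31, Kif11 -0.19 to 0.21, Kif20a -0.35 to 0.03, Nusap1 -0.04 to 0.25, Mki67 -0.28 to 0.07. The cause of these turns was not tested. Without iron-deficient pool 1, 13 signs turned. The number of arrays limits all of these values.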
